A study of Mus musculus with 11 samples.

Results

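The 9 genes described here are Fabp4, Aldh1a3, Fnip2, Cacna1d, Ncald, Nostrin, Evi5, Shroom3 and St18, out of 16394 protein-coding mouse genes with at least 1 open region. They were selected on the measured values themselves. Each is the nearest gene to 1 of the regions whose accessibility was most raised in day 9 CD8 T cells with a high Tcf7-YFP reporter over day 9 cells with a low one. Ranked by that log2 fold change, with the best region of each gene kept, they hold places 2 to 10. Cacna1d is just inside at 0.99 and Cd40lg, at place 11, is just outside at 0.98, while the gene at place 1 (Dgkg, 1.28) was left out of the set. That contrast therefore describes the genes and is no evidence about them. All peaks nearest to these genes were gathered, which gave 151 regions of 111041, and most of what follows concerns how the other 142 regions and the other libraries compare with the 9 that did the choosing.

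Accessibility was measured by ATAC-seq, in which a transposase inserts adapters into open DNA, in 11 libraries from mouse CD8 T cells that all carry the Tcf7-YFP reporter. Naive cells (CD8+CD44-CD62L+Tcf7-YFP+) and antigen-experienced cells (CD8+CD44+CD62L+Tcf7-YFP+) were sorted from spleen, effector cells had been activated ex vivo for 3 days, and each of these references is a single library. Cells sorted by YFP at day 3 were put back in culture and sorted again at day 9. Group high_to_high (2 libraries) had high YFP each time, group low_to_low (3 libraries) had low YFP each time, and group low_to_high (3 libraries) went from low to high. The 5 libraries that were high at day 9 are called YFP-high and the 3 low_to_low libraries YFP-low. The labels give no strain, age or sex and do not say whether replicates are separate animals or cultures, so p-values may measure only technical spread. In sorted bulk cells, a lower signal from fewer open cells and a lower signal per cell cannot be told apart.

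Tcf7 encodes TCF-1, an HMG-box transcription factor that is abundant in naive and memory T cells and is lost from most cells that become terminal effectors. Open regions inside and around genes hold promoters and enhancers, and an enhancer can act on a gene other than the nearest. None of the 9 genes is a textbook regulator of CD8 T cell memory. By known role, Fabp4 and Aldh1a3 belong to lipid and retinoid metabolism, Fnip2, Cacna1d and Ncald to nutrient and calcium signalling, Nostrin, Evi5 and Shroom3 to membrane traffic and the cytoskeleton, and St18 to transcription.

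The libraries held 20.84 to 59.97 M tags (M for mega) and 46454 to 66117 peaks. Each value printed for a peak is a normalized tag count, which scales the tags of that peak to a library of 10 M. A region missing from a list was under the calling threshold or was removed by a local filter, and is not known to be closed. The 9.01 to 10.17% of tags that fell in peaks in YFP-high libraries lay below the 10.4 to 12.47% in YFP-low libraries. In the references the share was 15.01% (naive), 15.75% (antigen-experienced) and 9.08% (effector). Reference values are given as deposited, with no adjustment for this difference. All 7 CD8 T cell markers had a region (the summed signal of the list was 671 to 828 in YFP-high and 803 to 917 in YFP-low libraries). Regions near genes of other cell types were also called. Peaks near a gene do not show that it is expressed, and whether other cells were present was not tested. Of the B cell, myeloid and erythroid markers, Cd79a, Csf1r and Hbb-bs had no region in any library and Ms4a1 had one in the effector library only. The summed signal over the 7 endothelial and adipocyte genes, cells known for Nostrin and Fabp4, was 281 to 333 in YFP-high and 324 to 404 in YFP-low libraries. Of these, Tek had no region at day 9, while Adipoq, Pecam1, Kdr, Plin1 and Cdh5 had one in all 11 libraries.

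The promoter sequence of 5 of the 9 genes was at hand in the RefSeq table for GRCm38.p6, the assembly also called mm10 (Nostrin, Fnip2, Shroom3, Evi5 and Cacna1d). The 4 promoter windows that overlapped a region are shown because none of these promoters is the region that chose its gene. Each is the 250 bases before an annotated start, 5′ to 3′ on the gene's strand, and capitals mark a motif match.
Nostrin, chr2:69135550-69135799, plus strand: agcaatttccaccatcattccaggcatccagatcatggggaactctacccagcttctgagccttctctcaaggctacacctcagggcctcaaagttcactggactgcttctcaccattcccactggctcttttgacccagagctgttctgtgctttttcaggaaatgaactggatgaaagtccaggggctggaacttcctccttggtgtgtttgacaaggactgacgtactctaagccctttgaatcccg
Fnip2, chr3:79567680-79567929, minus strand: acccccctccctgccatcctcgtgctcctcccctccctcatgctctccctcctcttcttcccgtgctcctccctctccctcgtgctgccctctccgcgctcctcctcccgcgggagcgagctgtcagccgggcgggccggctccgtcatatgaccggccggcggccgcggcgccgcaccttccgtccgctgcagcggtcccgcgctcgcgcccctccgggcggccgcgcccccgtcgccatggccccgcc
Shroom3, chr5:92897743-92897992, plus strand: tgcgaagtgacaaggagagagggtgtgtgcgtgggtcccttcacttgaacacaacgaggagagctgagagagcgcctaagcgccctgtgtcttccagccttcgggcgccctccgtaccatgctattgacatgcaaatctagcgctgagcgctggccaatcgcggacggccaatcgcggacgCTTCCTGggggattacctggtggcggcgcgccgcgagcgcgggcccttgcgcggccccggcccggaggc
Evi5, chr5:107869049-107869298, minus strand: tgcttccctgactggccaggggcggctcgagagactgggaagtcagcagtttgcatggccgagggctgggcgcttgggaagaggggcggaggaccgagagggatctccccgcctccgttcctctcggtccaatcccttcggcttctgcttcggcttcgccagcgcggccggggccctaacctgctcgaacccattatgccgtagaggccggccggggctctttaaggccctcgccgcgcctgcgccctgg
The windows were searched on both strands for ATCAAAG (TCF/LEF, in 3.23% of all 32585 windows of this length), TGAGTCA or its reverse complement TGACTCA (AP-1, 4.48%), TGTGGT (RUNX, 13.9%), CAGGAAG (ETS, 10.9%), AGGTGTGA (T-box, 1.13%) and GTAAACA (forkhead, 3.18%). The only match was the ETS motif in the Shroom3 window, read on the minus strand and so printed as CTTCCTG. A match is a string of letters and not a shown binding site, and the lack of one says nothing about a factor. The windows of Fnip2, Evi5 and Shroom3 were GC-rich (76.8, 68.4 and 66.0% G or C, where the median window has 52.4%), and the Nostrin window was not (50.4%).

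The region that chose each gene, its strongest, was 1.76 to 2.13 times higher in the mean of YFP-high than of YFP-low libraries, and log2 fold changes ran from 0.99 to 1.19 with each library centred on its median region. By the same choice all 9 passed limma at an adjusted p under 0.05, where 0.329% of the 34383 regions called in all 8 day 9 libraries passed in that direction. In all 9, every YFP-high library stood above every YFP-low library on the centred scale, as did 3.00% of all tested regions. Nothing is read from these counts. The values rested on 11 to 214 read ends a library, so the lowest of them carry a large counting error. Of the 9 regions, 7 lie within the span of their gene. The files do not give exons, so exonic and intronic positions are not told apart.

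**Figure D1:**
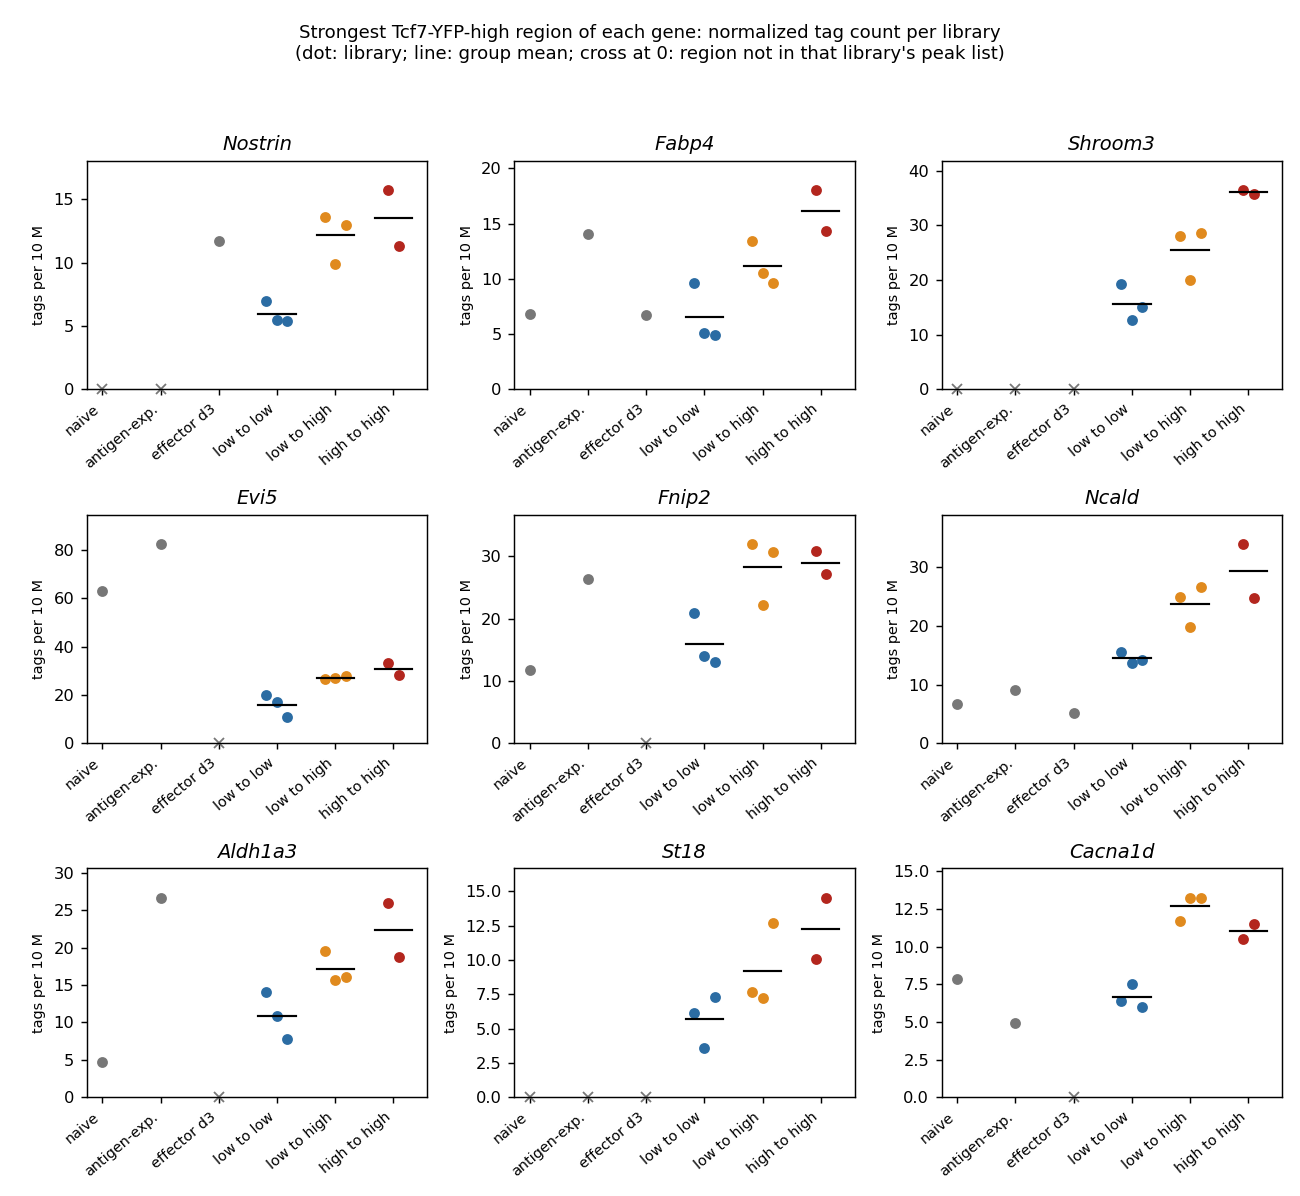
Normalized tag count (tags per 10 M, linear axis from 0) of the strongest region of each of the 9 genes, by group: each dot is a library, a line the mean of a group with 2 or 3 libraries, and a cross at 0 a library whose list lacks the region. The low_to_low dots are the lowest of the day 9 dots in 8 panels, with 1 overlap at St18, and the references range from no call (Shroom3, St18) to above all day 9 values (Evi5).

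Fabp4 encodes the fatty acid binding protein of adipocytes and macrophages, which carries lipids inside the cell (chr3:10204342-10208616). Its strongest region, chr3:10213047-10213418, lies 4431 bp outside the gene. Its normalized tag counts were 18.0 and 14.3 in high_to_high, 13.4, 10.5 and 9.60 in low_to_high, and 9.59, 5.14 and 4.94 in low_to_low. The means were 13.2 ± 3.34 (SD, n = 5) in YFP-high and 6.56 ± 2.63 (SD, n = 3) in YFP-low libraries, and low_to_low replicate 1 almost reached the lowest low_to_high value. It was also called in naive (6.80), antigen-experienced (14.1) and effector cells (6.77). The only other tested region of the locus, chr3:10205081-10205461 inside the gene, had 14.5 and 17.5 in high_to_high, 17.0, 13.9 and 17.8 in low_to_high and 17.0, 11.3 and 12.7 in low_to_low, so its groups overlapped. Its log2 fold change for YFP-high against YFP-low was 0.46 ± 0.16 (SE), the highest of any region that did not choose its gene, and it did not pass limma (adjusted p = 0.302). A region 793 bp from the strongest (chr3:10212006-10212253) was called in antigen-experienced (4.69) and effector (13.3) cells and in no day 9 library.

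Aldh1a3 encodes a retinaldehyde dehydrogenase that makes retinoic acid (chr7:66390892-66427477). The strongest region, chr7:66416687-66416894 inside the gene, had 26.0 and 18.8 in high_to_high, 19.5, 15.7 and 16.1 in low_to_high and 14.1, 10.8 and 7.73 in low_to_low. No YFP-low library reached the lowest YFP-high one, and the means were 19.2 ± 4.13 (SD, n = 5) and 10.9 ± 3.19 (SD, n = 3). Antigen-experienced cells had 26.6 and naive cells 4.66 at this region, and effector cells had no call. The other tested regions lie beyond the gene, at 7185 and 11320 bp, and did not pass the test (log2 fold changes 0.28 ± 0.16 and -0.16 ± 0.19). Of the 12 regions of the locus, 7 were called at day 9 and in no reference, including chr7:66404212-66404570, which had 10.0 and 9.45 in 2 low_to_low libraries, 6.51 in the other, and 4.59 to 7.04 in the 3 YFP-high libraries that called it. The highest region that references alone called, chr7:66477578-66477750, had 4.51 in effector cells.

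Fnip2 encodes a partner of folliculin that links AMP-activated kinase and amino acid sensing to mTORC1 (chr3:79455971-79568151). At its strongest region, chr3:79535816-79536041 inside the gene, high_to_high libraries had 30.8 and 27.1, low_to_high libraries 31.9, 22.2 and 30.7, and low_to_low libraries 20.9, 14.0 and 13.1. Low_to_high replicate 2 and low_to_low replicate 1 were the closest of the opposite states. The means were 28.5 ± 3.98 (SD, n = 5) against 16.0 ± 4.27 (SD, n = 3). Naive cells had 11.7 and antigen-experienced cells 26.4, and effector cells had no call there. The promoter of Fnip2 behaved otherwise. The region over it, chr3:79567477-79567869, was called in all 11 libraries with a log2 fold change of -0.23 ± 0.14, and the region 24 bp upstream of the gene, chr3:79568175-79568416, also called in all 11, had -0.04 ± 0.13; neither passed. A region at chr3:79542652-79542824, 20.1 in effector cells, was called in no other library.

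Cacna1d encodes the pore-forming subunit of an L-type voltage-gated calcium channel, best known in neurons, pancreatic beta cells and the sinoatrial node (chr14:30039941-30491156). Its strongest region, chr14:30427969-30428215 inside the gene, had 10.5 and 11.5 in high_to_high, 11.7, 13.2 and 13.2 in low_to_high, and 6.39, 7.53 and 6.02 in low_to_low. The states were well apart, with means of 12.0 ± 1.17 (SD, n = 5) and 6.65 ± 0.787 (SD, n = 3), and on the deposited scale, but not after centring, every low_to_high library stood above every high_to_high library. Naive cells had 7.86 and antigen-experienced cells 4.90, and effector cells had no call. The locus also held the lowest log2 fold change among the regions that did not choose a gene. At chr14:30249685-30249926, also inside the gene, YFP-high libraries had 17.0, 18.5, 14.4, 20.4 and 16.1 and YFP-low libraries 22.4, 28.9 and 27.5. No YFP-high library reached the lowest YFP-low one, and the log2 fold change was -0.36 ± 0.13, which did not pass limma (adjusted p = 0.319).
The tallest region of the locus, chr14:30479439-30479656, lies inside both Cacna1d and Dcp1a by the gene spans, so its assignment is shared. It had 119 in naive, 114 in antigen-experienced and 41.7 in effector cells, 53.8 to 69.5 in YFP-high and 67.2 to 84.3 in YFP-low libraries. Centred, its log2 fold change was -0.06 ± 0.09. Both Cacna1d promoter windows overlapped no region in any library. The highest region that references alone called was chr14:30467568-30467740, 13.5 in effector cells, and another, chr14:30125258-30125536, was called in all 3 references (7.33, 6.82 and 5.08) and in none of the day 9 libraries.

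Ncald encodes neurocalcin delta, a calcium-sensing protein of the neuronal calcium sensor family (chr15:37366175-37792519). With 40 regions, 12 of them tested, it had the highest count of the loci, over a long span of 426345 bp. Inside its span Ncald had 9.38 regions per 100 kb, fewer than Fabp4 (46.8), Evi5 (14.6) and Aldh1a3 (13.7). Its strongest region, chr15:37482439-37482791, had 33.9 and 24.8 in high_to_high, 24.9, 19.9 and 26.6 in low_to_high and 15.6, 13.7 and 14.2 in low_to_low. The low_to_low libraries were close together (14.5 ± 0.985, SD, n = 3) and below all YFP-high libraries (26.0 ± 5.07, SD, n = 5). The references were lower still, at 6.66 in naive, 9.16 in antigen-experienced and 5.17 in effector cells. The other 11 tested regions had log2 fold changes of -0.15 to 0.37, and none passed (lowest adjusted p = 0.532 with limma). The tallest of them, chr15:37458517-37458767, had 23.6 and 26.1 in high_to_high, 24.9, 29.6 and 26.4 in low_to_high and 28.8, 34.0 and 24.7 in low_to_low, with all groups overlapping. Effector-only regions were 17 of 40, where 23.4% of all regions are effector-only, and the highest was chr15:37656599-37656771 at 35.3.

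Nostrin encodes an adaptor that binds endothelial nitric oxide synthase and takes part in its uptake from the plasma membrane (chr2:69135800-69189330). Its locus had only 4 regions. The strongest, chr2:69125449-69125702, lies 10098 bp before the gene and 11165 bp from Cers6 on its other side. High_to_high libraries had 15.7 and 11.3 there, low_to_high libraries 13.6, 9.93 and 13.0, and low_to_low libraries 7.01, 5.49 and 5.37. No value of the low group reached any of the high ones (5.96 ± 0.914, SD, n = 3, against 12.7 ± 2.21, SD, n = 5). Among the references only effector cells had a call, at 11.7. The promoter region, chr2:69135731-69136097, was weak and patchy, with 3.60 in naive and 5.55 in effector cells, 5.04 and 3.67 in high_to_high, 4.19 in low_to_high replicate 1, 3.46 in low_to_low replicate 2 and no call elsewhere, and it was not tested. A region at chr2:69132724-69132896 was called in effector cells alone, at 6.20.

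Evi5 encodes a TBC-domain protein of membrane traffic and cell division, first found as a site of viral integration in mouse leukaemia (chr5:107744795-107875107). Its strongest region, chr5:107840672-107840850 inside the gene, had 33.1 and 28.2 in high_to_high, 26.5, 26.9 and 27.8 in low_to_high and 19.9, 17.1 and 11 in low_to_low. The means were 28.5 ± 2.66 (SD, n = 5) and 16.0 ± 4.55 (SD, n = 3), with no overlap. On the deposited scale the spleen libraries, which also had larger shares of tags in peaks, were far above all day 9 libraries (62.9 in naive, 82.2 in antigen-experienced). Effector cells had no call. Another region inside the gene ran the other way between references: chr5:107756139-107756396 had 5.60 in naive, 16.8 in antigen-experienced and 41.9 in effector cells, and its day 9 values overlapped (21.8 to 25.6 in YFP-high, 22.3 to 27.5 in YFP-low, log2 fold change 0.15 ± 0.11). The promoter region, chr5:107868868-107869263, was called in 8 libraries and was not tested, with 10.3 in naive, 19.9 in effector, 15.6 in high_to_high replicate 2, 20.7 and 20.9 in low_to_low replicates 1 and 2, and 14.3, 16.4 and 14.4 in low_to_high. A region at chr5:107778918-107779097 was called in naive (3.46) and effector (27.5) cells and in no day 9 library.

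Shroom3 encodes an actin-binding protein that constricts the apex of epithelial cells (chr5:92683435-92965759). Its strongest region, chr5:92863955-92864269 inside the gene, had the highest day 9 values of the 9 in the cells that stayed high, at 36.4 and 35.7. Low_to_high libraries had 28.1, 20.0 and 28.6 and low_to_low libraries 19.3, 12.7 and 15.0, so the 3 groups did not overlap and stood in that order. No reference library called the region. The promoter region at the start shown above, chr5:92897735-92898047, was called in effector cells (10.2) and all day 9 libraries and its log2 fold change was 0.01 ± 0.14. The tallest other region, chr5:92964727-92964983, had 31.2 and 28.3 in high_to_high, 23.6, 26.5 and 34.1 in low_to_high and 28.8, 31.2 and 36.5 in low_to_low, and the groups overlapped (0.06 ± 0.12). A region inside the gene, chr5:92961739-92961911, reached 30.3 in effector cells and was called in no other library. None of the 19 regions was called in naive cells, and 11 were called at day 9 alone.

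St18 encodes a zinc-finger transcription factor of the Myt1 family, known from neurons and pancreatic beta cells (chr1:6487231-6860940). Its strongest region, chr1:6519165-6519480 inside the gene, had the lowest day 9 mean of the 9. Its values were 10.1 and 14.5 in high_to_high, 7.65, 7.22 and 12.7 in low_to_high and 6.15, 3.58 and 7.30 in low_to_low. On the deposited scale low_to_low replicate 3 exceeded low_to_high replicate 2, and the states separated only after centring. No reference called the region. Of the other 4 tested regions, 3 lie 19876 to 32824 bp outside the gene. The tallest, chr1:6467141-6467355, had 6.13, 11.5 and 13.4 in naive, antigen-experienced and effector cells and overlapping values at day 9, with 23.8 to 34.0 in YFP-high and 27.8 to 35.1 in YFP-low libraries (0.07 ± 0.11). The highest region that references alone called, chr1:6444806-6444978, had 14.4 in effector cells.

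Away from the 9 choosing regions, no region of these loci passed the test on the centred scale with all 8 day 9 libraries. Passing was rare among all 34383 tested regions too, at 114, 205, 11 and 0 in the comparisons below, in order. No call among 34 is therefore near the share over all regions. For YFP-high against YFP-low the log2 fold changes of the 34 other tested regions had their median at 0.06, with 22 above and 12 below 0, a range of -0.36 to 0.46 and no call by limma (lowest adjusted p = 0.302). At an unadjusted p under 0.05 there were 3 of 34, beside 8.07% of all tested regions. Over all tested regions the median was -0.005. On the centred scale 2 of the 34 (chr14:30459879-30460264 in Cacna1d and chr15:37418934-37419187 in Ncald) had every YFP-high library above every YFP-low library, beside 3.00% of all tested regions, and 1 (chr14:30249685-30249926 in Cacna1d) had the reverse, beside 2.48%. None of the 34 passed in high_to_high against low_to_low (-0.50 to 0.55, lowest adjusted p by limma = 0.213), in low_to_high against low_to_low (-0.44 to 0.41, adjusted p = 0.565) or in low_to_high against high_to_high (-0.65 to 0.44, adjusted p = 0.923). At an unadjusted p under 0.05 there were 5, 2 and 3 of 34, beside 9.92, 5.56 and 5.09% of all tested regions. The -0.65 belonged to chr1:6487144-6487554, at the edge of St18, and lay below the lowest value of the 9 strongest regions in that comparison (-0.62). Without centring, on the deposited scale, 3 of the 34 passed in the first comparison and 6 in the second, all lower in the high cells (in Cacna1d, Evi5 and Fnip2). On that scale the median of all regions moves by -0.22 and -0.30, and calls over all regions go from 113 higher and 1 lower to 79 and 1943 in the first comparison, and from 192 and 13 to 149 and 7261 in the second.

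**Figure D2:**
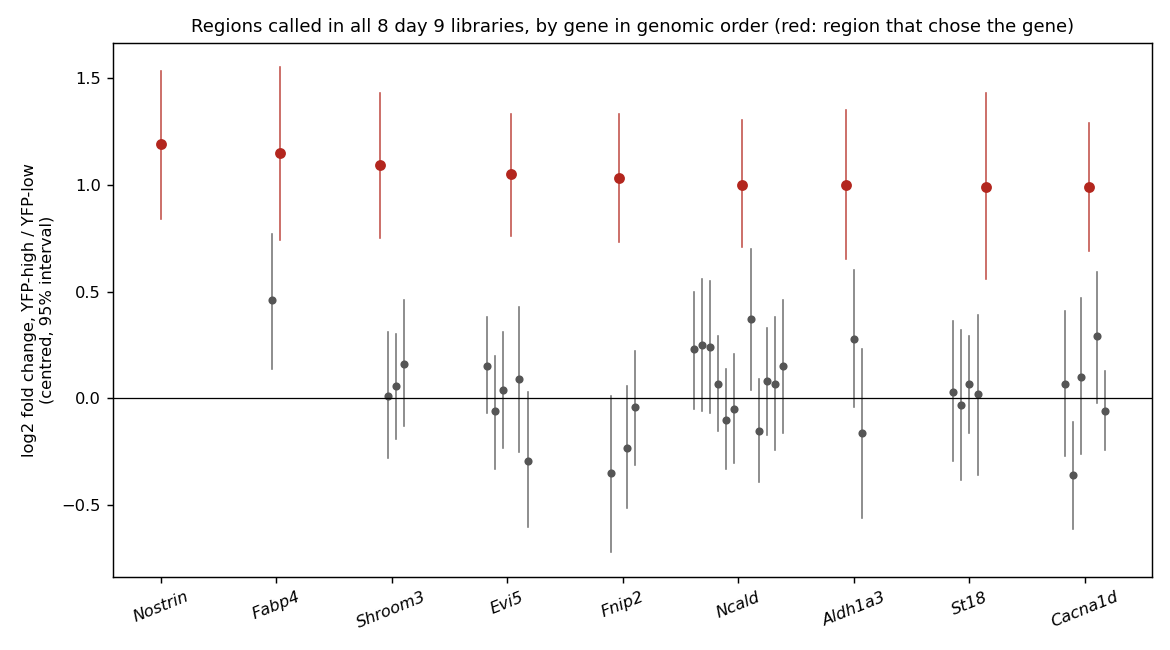
Log2 fold change of YFP-high over YFP-low, with 95% interval, of the 43 tested regions of the 9 loci, each locus in genomic order. Red marks the 9 regions that chose the genes (0.99 to 1.19) and grey the other 34 (-0.36 to 0.46).

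The nearest tested neighbour of each strongest region lay 7585 to 33465 bp away, where the locus had one. These neighbours had log2 fold changes of -0.23 (Fnip2) to 0.46 (Fabp4). The strongest region was the tallest of its locus in YFP-high libraries at 5 genes and in YFP-low libraries at 2. No region of the 151 was called in at least 4 of the 5 YFP-high libraries and in no YFP-low library (0.242% of all regions were), and none in all 3 YFP-low libraries and in no YFP-high library (0.0693% of all). The 9 strongest regions could be tested only because all 8 day 9 libraries called them, so what is compared there is height and not presence.

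The references called the regions of these loci to differing extents. Of the 151 regions, 51 were called in naive cells (33.8%, against 51.7% of all regions), 38 in antigen-experienced cells (25.2% against 45.2%) and 83 in effector cells (55.0% against 59.5%). Regions called at day 9 alone numbered 39 (25.8% against 14.2%), those in effector cells alone 44 (29.1% against 23.4%), and those in the spleen alone 3 (1.99% against 8.10%). Only 17 were called in every library (11.3% against 21.1%). These shares are descriptions over regions that share a locus, with no test. They were uneven over the genes. Day 9-only regions were 11 of 19 at Shroom3 and 7 of 12 at Aldh1a3 but 0 of 4 at both Nostrin and Fabp4, and effector-only regions were 17 of 40 at Ncald and 9 of 28 at Cacna1d. Regions called in a single library made up 38.4%, beside 36.6% of all regions.

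**Figure D3:**
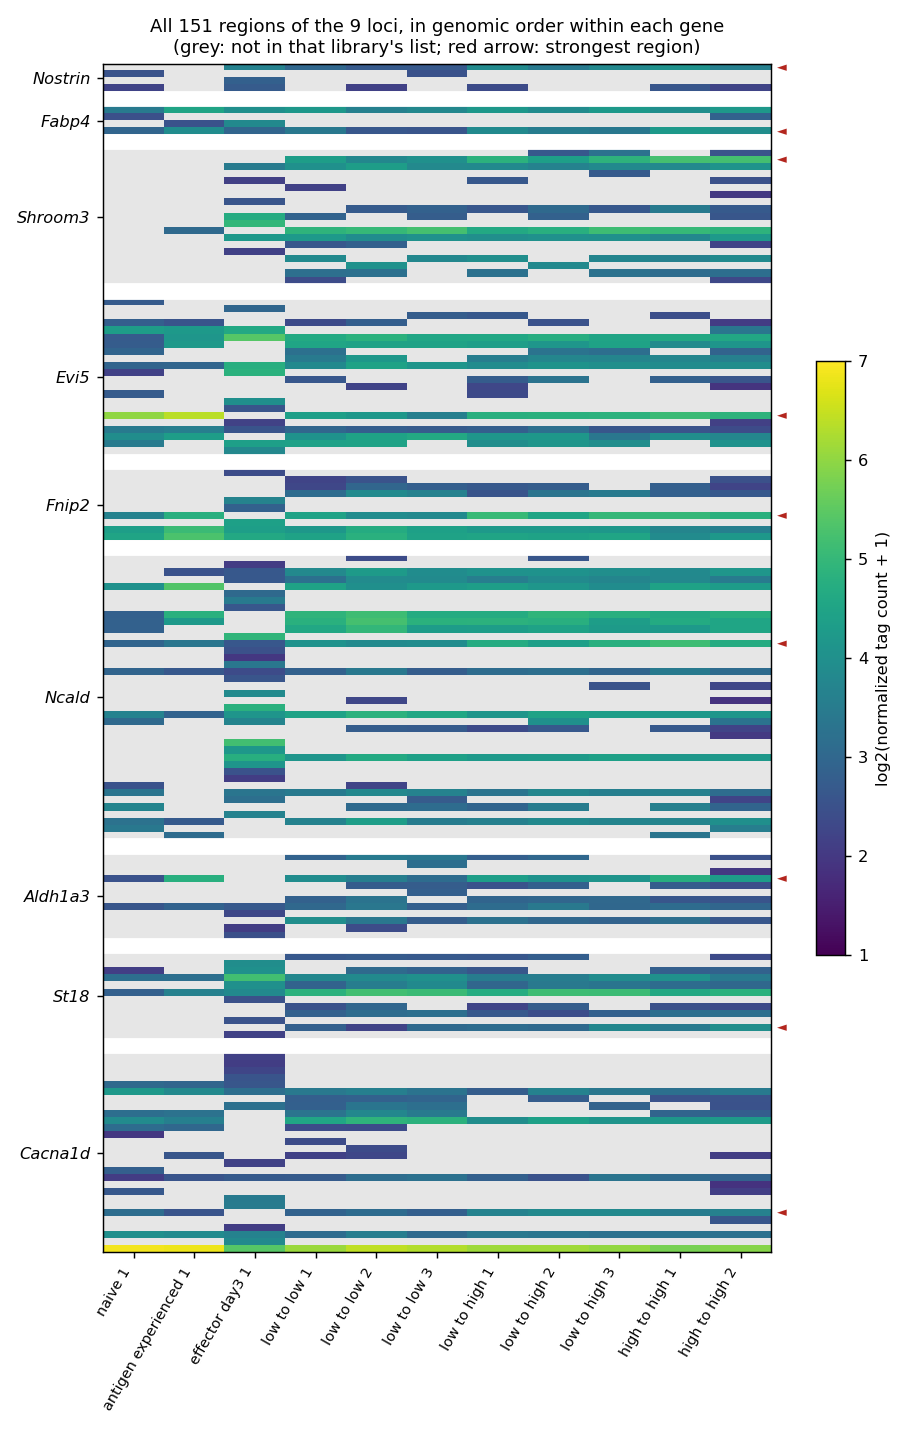
All 151 regions (rows, in genomic order within each gene) in the 11 libraries (columns), coloured by log2(normalized tag count + 1), with grey for a library whose list lacks the region and red arrows at the strongest regions. At Ncald, 17 of the 40 rows have colour in the effector column only.

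**Figure D4:**
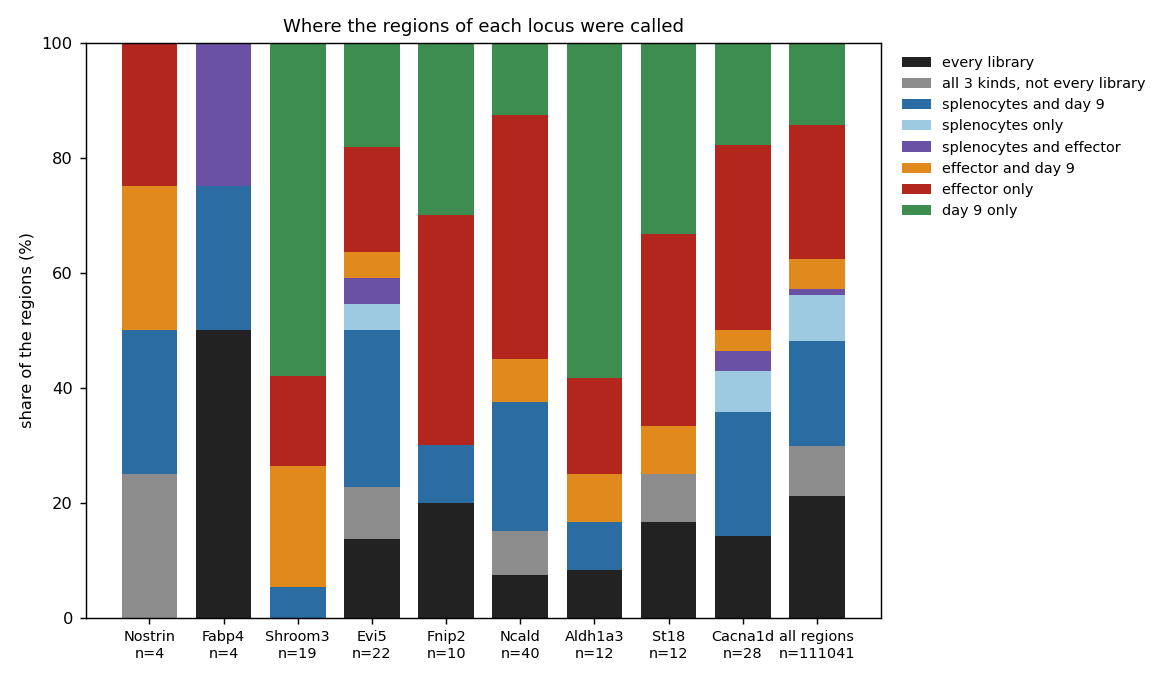
Share of regions (%) of each locus, and of all 111041 regions, by the kinds of library that called them. The every-library share is 11.3% over the 9 loci and 21.1% over all regions, and the day 9-only share is 25.8% against 14.2%.

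The strongest regions took no single path from the references to day 9. Naive and antigen-experienced cells each called 6 of the 9, and effector cells 3 (Nostrin, Fabp4 and Ncald). Evi5 was highest in spleen cells. Antigen-experienced values at Fabp4, Fnip2 and Aldh1a3 (14.1, 26.4 and 26.6) lay within or above the range of YFP-high libraries, and at Ncald all 3 references lay below every day 9 library. Shroom3 and St18 were called at day 9 alone. Over the tested regions of the loci, 18 of 43 had no effector call (41.9%), against 24.6% of all tested regions; among the 34 that did not choose a gene it was 12. Each reference is 1 library with its own depth, threshold and share of tags in peaks, and its values were not centred, so these are values with no test.

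Split by history, both kinds of YFP-high cell had higher means than low_to_low at all 9 strongest regions. High_to_high against low_to_low gave log2 fold changes of 0.94 (Cacna1d) to 1.52 (Fabp4), and low_to_high against low_to_low gave 0.78 (St18) to 1.09 (Nostrin). Both comparisons share the low_to_low libraries with the one that chose the genes, so the counts are a description. All 9 passed in the first, where 0.558% of tested regions passed as higher, and 6 in the second, where 0.0320% did. In the second Fabp4, Aldh1a3 and St18 did not pass. With the replicate number as a block, 8 passed and 0.160% of all regions did, with Fabp4 and Aldh1a3 added (adjusted p = 0.00583 and 0.00529 in limma) and St18 still outside (0.0734). The 6 calls fell to 0 without low_to_low replicate 2, without low_to_low replicate 3 or without low_to_high replicate 3, and to 2 without low_to_high replicate 1. They fell to 5, without Shroom3, when either high_to_high library was left out, and rose to 8 without low_to_low replicate 1. In the choosing contrast the 9 calls fell to 6 without low_to_low replicate 2, where Fabp4, Aldh1a3 and St18 no longer passed (adjusted p = 0.13, 0.0646 and 0.534 by limma), and all 9 stayed positive. St18 also lost its call without either high_to_high library or without low_to_high replicate 3, and Fabp4 and Aldh1a3 lost theirs without low_to_low replicate 3 (adjusted p = 0.0589 to 0.0914). In high_to_high against low_to_low, Aldh1a3 did not pass without high_to_high replicate 1, Cacna1d without high_to_high replicate 2, and St18 without either high_to_high replicate 2 or low_to_low replicate 2 (adjusted p = 0.0505 to 0.174).

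Low_to_high against high_to_high is the comparison on which the genes were not ranked. The ranking averaged these same 5 libraries on the high side, however, so the values below were used in choosing and the counts are a description. The comparison asks whether cells that regained YFP had the same height at these regions as cells that kept it. The log2 fold change was below 0 at 8 of the 9 genes, with a median of -0.41 beside 0.01 over all tested regions, and no region passed limma. The same was true of all 34383 regions (0.00% called, 1749 or 5.09% at an unadjusted p under 0.05). Shroom3 had -0.62, with a 95% interval of -0.99 to -0.25 and an adjusted p of 0.923 by limma (unadjusted 0.00189), and its high_to_high libraries (36.4 and 35.7) stood above all low_to_high ones (20.0 to 28.6). Fabp4 had -0.62 (-1.09 to -0.15), with its groups also apart. Aldh1a3 (-0.48, -0.89 to -0.07), Ncald (-0.41, -0.75 to -0.06) and St18 (-0.53, -1.05 to -0.00) had intervals that reached no higher than 0. On the centred scale the Aldh1a3 groups were apart as well, though on the deposited scale low_to_high replicate 1 (19.5) exceeded high_to_high replicate 2 (18.8), and those of Ncald and St18 overlapped on both scales. These 5 are the genes with an unadjusted p under 0.05. The intervals of Nostrin (-0.25, -0.68 to 0.17), Evi5 (-0.29, -0.64 to 0.06) and Fnip2 (-0.17, -0.55 to 0.21) covered 0, although both Evi5 high_to_high libraries (33.1 and 28.2) stood above all low_to_high ones (26.5 to 27.8), and Cacna1d was at 0.07 (-0.31 to 0.44). No interval reached above 0.44 or below -1.09. Without high_to_high replicate 1 the median of the 9 was -0.19, and without low_to_high replicate 2 it was -0.25.

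**Figure D5:**
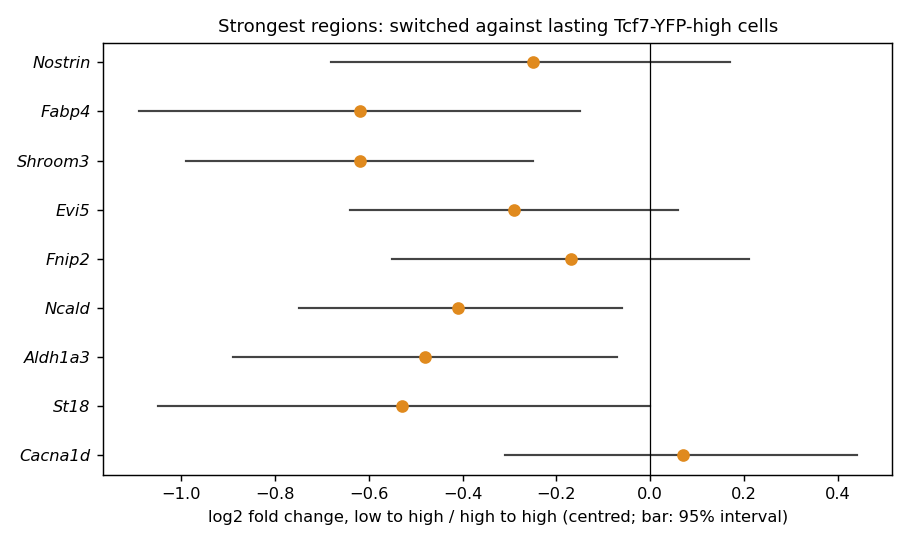
Log2 fold change of low_to_high over high_to_high at the strongest region of each gene, with 95% interval, on the centred scale. The points of 8 genes lie left of 0 and Cacna1d lies at 0.07, and none passed the adjusted test.

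The libraries of a group kept a similar order from gene to gene. At the 9 strongest regions on the centred scale, high_to_high replicate 1 was the highest of the 8 libraries at 7 genes, low_to_low replicate 2 the lowest at 6, low_to_low replicate 1 the highest of its group at 8 and low_to_high replicate 2 the lowest of its group at 7. The share of tags in peaks moved with this. Replicate 1 of high_to_high had the lowest share (9.01%) and low_to_low replicate 2 the highest (12.47%) of the 8, low_to_low replicate 1 the lowest of its group (10.4%) and low_to_high replicate 2 the highest of its group (10.17%). With that share as a covariate, all 9 regions stayed positive (0.19 to 1.00, median 0.47) and none passed. The share does not overlap between the YFP states, so share and state cannot be told apart.

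No region passed the test near genes that are known to work with the 9 or belong to their families. That list holds 53 genes, among them the other fatty acid binding proteins, retinoic acid receptors, voltage-gated calcium channel subunits, folliculin and nitric oxide synthase 3, of which 46 had 340 regions and 93 of these were tested. None passed in any of the 4 comparisons with limma. Among all 34383 tested regions 114, 205, 11 and 0 passed, in the order used above, so no call among 93 is near that share. The median log2 fold change of the 93 for YFP-high against YFP-low was 0.02, with 48 above 0. The lowest p belonged to a region near Cacnb2, an auxiliary subunit of the same class of channel as Cacna1d (0.50, adjusted p = 0.169 with limma, and 0.66 with adjusted p = 0.0867 for high_to_high against low_to_low). Fabp9, which lies 15764 bp from the strongest Fabp4 region, had no region assigned to it, and Myt1l, a relative of St18, had none either.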

How the data were processed

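The 11 deposited peak lists, 1 a library, were made by the authors with HOMER 4.10 per the file headers, without pooling replicates. Bowtie2, DESeq2 and build mm10 are named in the submitters' processing notes, with no role stated for DESeq2. Signal was deposited as a normalized tag count, that is tags of the peak scaled to a library of 10 M, per the file headers. The fold over the local 10 kb (at least 4) and the local p-value (at most 1e-04) are filters the authors applied, per the file headers, and the false discovery rate was set to 0.001. Weak or broad signal can therefore be missing.

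Peaks overlapping by 1 bp or more were joined across libraries, a region taking its highest value in each, and were assigned to the nearest RefSeq protein-coding span within 100 kb. Of the 151 member regions, 3 are shared with another gene. The 34383 regions called in all 8 day 9 libraries, 43 of them at the 9 loci, were tested with limma 3.58.1 (R 4.3.3, lmFit, and eBayes with trend). It was run on log2(normalized tag count + 1) after subtracting the median of each library. Benjamini-Hochberg adjustment ran over all of them, and an adjusted p under 0.05 was a call. The pseudocount of 1 shrinks fold changes of low regions. YFP-high against YFP-low used 2 groups, and the other comparisons came from 1 model of 3 groups. The fit was tested on simulated data.

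The regions named at a locus are its strongest, any called in a day 9 comparison, the tallest by day 9 mean and the highest called in references only. Regions over a promoter window are named too, but such windows were at hand for only 5 of the 9 genes. Further regions are named as examples chosen after their values were seen. The 9 genes, the lists and the tests were chosen with earlier results of these data known.

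Same-numbered low_to_low and low_to_high libraries deviated together weakly (r = 0.298, 0.136 and 0.161 over the tested regions, each over 0.1). Same-numbered high_to_high libraries did not deviate with them (-0.0407 to -0.00121). The labels do not say what a number marks, so whether the numbers pair libraries is not known. Alternatives were no centring, cyclic loess, a pseudocount of 5, a mean of at least 10, other sets of regions, a replicate block, a covariate and leaving out each day 9 library. The genome sequence was not used here, and 1 region of the closing observations is not reported here.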

Additional observations from a re-analysis of the deposited data

Results flagged for a closer look

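At the strongest region of Evi5 the highest of the 5 YFP-high libraries stood apart. High_to_high replicate 1 had a normalized tag count of 33.1, the next library 28.2, and the gap was 0.742 of the range of the 5, above the 95% limit of Dixon's test. Of 15 groups of 5 values examined it was the only one, and chance alone gives about 1 in 20. Leaving this library out, all 9 strongest regions stayed higher in YFP-high cells. The test takes the 5 libraries as 1 group, but they pool high_to_high and low_to_high. Both high_to_high values lay above all low_to_high values (26.5 to 27.8). An odd library and a group difference therefore cannot be told apart.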

How the results depend on the processing

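The 9 strongest regions stayed higher in YFP-high than in low_to_low cells, and in each of high_to_high and low_to_high, under every alternative that tested them; St18 could not be tested at a mean of at least 10. Counts of called member regions moved by over 1.5 times as follows. The reported counts were 9 (YFP-high against YFP-low), 9 (high_to_high against low_to_low) and 6 (low_to_high against low_to_low). They became 0, 0 and 0 when the model held each library's share of tags in peaks; the cause was not tested. Without centring, the second count was 15, of which 6 were regions other than the strongest, all lower in high_to_high. The third count was 0. Leaving out 1 library gave 6 to 10, 7 to 9 and 0 to 8 in the same order, and 0 to 0 for low_to_high against high_to_high. The 10 came without low_to_low replicate 1. There the 9 strongest regions passed, and so did a region that did not choose its gene. A lone high_to_high library was assumed to vary like the other groups. The 1 reversal was Fnip2 for low_to_high against high_to_high, at 0.03 without low_to_high replicate 2; leaving out each library in turn gave -0.28 to 0.03. The replicate block left 9 called in the first 2 comparisons and 0 in low_to_high against high_to_high, though the high_to_high libraries did not deviate with those of the same number. Other merging, distance and peak limits gave 145 to 156 regions, with 15 to 17 in every library. Depth limits the weakest regions, since a peak under a library's threshold has no value.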

Other observations

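Outside the 9 loci, 4 of the 5 tested regions whose centred log2 profile over the 8 day 9 libraries was most like the mean profile of the 9 strongest regions, taking 1 region a gene, were near Ppfibp2 (Pearson r = 0.983), Cdc42se2 (0.982), Htt (0.980) and Nin (0.980). The points are libraries of 3 groups, so these r values are descriptions with no test. Their log2 fold changes for YFP-high against YFP-low were smaller than those of the 9, at 0.69, 0.43, 0.67 and 0.62, and those of Ppfibp2 and Htt passed limma (adjusted p = 0.00299 and 0.0137).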
